A study of Homo sapiens with 4 samples.

Results

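The unannotated transcribed loci are 345 stretches of the human genome that the deposited gene table lists without a gene name, each under an identifier that starts with XLOC. All such entries were taken, and they make up 345 of the 58740 entries of the table; the other 58395 are named genes. RNA was sequenced from spheroids of 4 established colon lines of human origin, each represented by 1 library, so there are no replicates. The line HCEC-1CT was made from colon without cancer and immortalised with TERT and CDK4. Colorectal carcinomas gave the lines HCT116 and DLD-1, and a lymph node metastasis gave SW620. All 4 are labelled as epithelial cells of genotype WT and were grown in the same way. About 200000 cells were seeded per well of low-attachment plates with 24 wells, in DMEM to which fetal bovine serum (10%) and an antibiotic/antimycotic mix (1%) were added. After 7 days at 37°C and 5% CO2, compact spheroids were picked under a microscope and total RNA was taken from spheroids of 2 plates. Every series of 4 values is given in 1 order, with HCEC-1CT first and HCT116, DLD-1 and SW620 after it.

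When reads are assembled into transcripts against a reference annotation, transcripts that match no annotated gene are gathered into loci of their own. Such loci can hold long noncoding RNAs, RNA made in the opposite direction from the promoter of a neighbouring gene, extensions of genes past their annotated ends, or fragments of ribosomal and transfer RNA units. Long noncoding RNAs are known to be low in level and restricted in the cells that make them, compared with protein-coding genes. A locus enters a table of this kind only because reads were assembled there, while a named gene is listed whatever its level. The shares of loci that were detected, and how they fell over the lines, are therefore partly set by how the table was made. The sources used here do not say which libraries entered the assembly, nor give the strand and the exons of the loci, so a span below is the genomic span.

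The sequences below show how some of the loci lie against the start of a gene. They were read from the RefSeq promoter table (GRCh38.p14), whose windows hold 250 bases before and 50 after a gene start; the loci reached 38 of these windows, in 30 loci. In the sequences, printed 5′ to 3′ on the strand of the gene, capitals mark the bases that lie inside the locus. The first 4 are the 250 bases before the start of a protein-coding gene and are 4 examples of a locus that ends within 100 bases of the gene in the gene table, chosen after their values were seen; BIRC6 and PHRF1 have such a locus and window too. They lie at chr16:589107-589356 on the + strand for RAB40C, a Rab-family GTPase, and at chr11:102346964-102347213 on the + strand for BIRC2, an inhibitor of apoptosis. Those of NOC2L, a nucleolar repressor of transcription, lie at chr1:959257-959506 on the - strand, and those of TP53BP2, which binds p53, at chr1:223845948-223846197 on the - strand.
XLOC_020842 before RAB40C: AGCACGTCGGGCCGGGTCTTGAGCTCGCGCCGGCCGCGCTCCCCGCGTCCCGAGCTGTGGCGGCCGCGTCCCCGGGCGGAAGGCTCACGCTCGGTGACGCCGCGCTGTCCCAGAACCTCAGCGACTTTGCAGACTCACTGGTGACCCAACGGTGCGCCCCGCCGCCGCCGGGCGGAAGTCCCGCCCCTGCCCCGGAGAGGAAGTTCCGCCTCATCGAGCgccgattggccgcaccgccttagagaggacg
XLOC_010589 before BIRC2: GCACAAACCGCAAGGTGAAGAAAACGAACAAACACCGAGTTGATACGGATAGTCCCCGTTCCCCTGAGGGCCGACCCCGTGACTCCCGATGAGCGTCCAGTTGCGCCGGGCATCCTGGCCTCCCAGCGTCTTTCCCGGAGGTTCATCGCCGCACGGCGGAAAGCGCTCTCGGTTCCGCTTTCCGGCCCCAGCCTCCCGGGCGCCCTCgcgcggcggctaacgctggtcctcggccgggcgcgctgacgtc
XLOC_000028 before NOC2L: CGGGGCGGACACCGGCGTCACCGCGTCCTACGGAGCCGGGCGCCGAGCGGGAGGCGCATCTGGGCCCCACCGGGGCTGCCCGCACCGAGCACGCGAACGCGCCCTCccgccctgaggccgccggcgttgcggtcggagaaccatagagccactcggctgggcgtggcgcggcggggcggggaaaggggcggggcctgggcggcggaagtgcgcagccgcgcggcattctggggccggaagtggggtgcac
XLOC_002449 before TP53BP2: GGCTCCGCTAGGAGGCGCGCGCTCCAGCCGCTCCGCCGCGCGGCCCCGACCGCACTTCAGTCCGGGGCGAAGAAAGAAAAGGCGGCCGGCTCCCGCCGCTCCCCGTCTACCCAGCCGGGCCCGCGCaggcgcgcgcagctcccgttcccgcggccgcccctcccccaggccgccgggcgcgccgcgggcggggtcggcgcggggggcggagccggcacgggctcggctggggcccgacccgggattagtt

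In these windows 219, 207, 106 and 126 bases belonged to the locus, always on the side away from the gene. Over the whole windows, 74.7%, 68.7%, 76.3% and 79% of the bases were G or C, and the dinucleotide CG occurred 45, 40, 44 and 51 times. Over the 13 windows of protein-coding genes that a locus reached, the median was 74% G or C with 34 CG dinucleotides, against 62.3% and 21 over all 22199 such windows. Over the 25 windows of long noncoding RNA genes reached, the medians were 59.3% and 7, against 50% and 5 over all 12917. A search for the letters TATAAA on both strands found 1 of the 38 windows, which is 2.63%, against 11.5% of all 35116 windows. A match is a description of the letters and not of a bound factor.

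The next sequences are whole windows of RefSeq genes for long noncoding RNA. They are shown because the locus has an end within 50 bases of the start of the RefSeq gene and was high in HCEC-1CT alone. The window of LOC105370064, at chr12:127205878-127206177 on the - strand, is the 1 that holds TATAAA, outside the locus. The window of LOC105375566, at chr7:150782012-150782311 on the - strand, holds 100 bases of its locus.
XLOC_013856 at LOC105370064: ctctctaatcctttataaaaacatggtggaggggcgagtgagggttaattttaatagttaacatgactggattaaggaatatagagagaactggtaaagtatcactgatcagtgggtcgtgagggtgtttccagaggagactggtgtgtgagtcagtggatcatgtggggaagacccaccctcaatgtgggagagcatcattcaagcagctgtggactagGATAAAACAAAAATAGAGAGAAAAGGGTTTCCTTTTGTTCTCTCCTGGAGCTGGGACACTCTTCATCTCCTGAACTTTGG
XLOC_050996 at LOC105375566: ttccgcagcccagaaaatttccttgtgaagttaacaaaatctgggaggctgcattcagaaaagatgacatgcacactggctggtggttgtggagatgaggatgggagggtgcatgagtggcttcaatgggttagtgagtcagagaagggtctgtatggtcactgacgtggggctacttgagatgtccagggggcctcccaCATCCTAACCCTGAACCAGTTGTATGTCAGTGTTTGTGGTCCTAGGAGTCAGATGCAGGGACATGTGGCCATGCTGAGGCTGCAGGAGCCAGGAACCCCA

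XLOC_013856 reached 30 bases beyond the start of LOC105370064 and XLOC_050996 reached 50 bases beyond that of LOC105375566. Against RefSeq as a whole, 101 of the 331 loci on chromosomes shared at least 1 base with a RefSeq gene on either strand. The loci met a long noncoding RNA gene in 66 cases, a tRNA gene in 16, a protein-coding gene in 16 and a pseudogene in 8. In 6 loci both ends lay within 50 bases of the ends of a RefSeq long noncoding RNA gene. In contrast, 234 of the 345 loci overlapped neither a named gene of the table nor a RefSeq gene. The 14 loci on unplaced scaffolds met no RefSeq gene here, and whether RefSeq covers these scaffolds was not tested. Against GENCODE 29, the annotation used here for gene types, 6 of the 345 loci overlapped a gene span. XLOC_010825, XLOC_012935 and XLOC_015054 are examples of these 6 that are also among the 234. Of the 6 GENCODE genes met, 3 were listed in the gene table. The 234 are thus not all free of annotated genes.

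The libraries corresponded to about 29500000, 25300000, 23300000 and 28700000 fragments, read from the steps of the low values, since the files hold no counts. FPKM is the number of fragments scaled to transcript length and library size, so 1 FPKM stands for about 29.5, 25.3, 23.3 and 28.7 fragments per kb of transcript. Of 9 epithelial marker genes, such as EPCAM and KRT19, 2, 7, 8 and 8 reached 1 FPKM, and their summed levels were 7.20, 1538, 5233 and 6756 FPKM. Of 9 fibroblast marker genes, such as COL1A2 and DCN, 9, 1, 1 and 2 reached 1 FPKM, with summed levels of 1087, 12.7, 1.46 and 28.0 FPKM. HCEC-1CT, labelled epithelial, thus had EPCAM, CDH1 and KRT19 listed at 0 and all 9 fibroblast markers above 1 FPKM, which holds beside every difference between HCEC-1CT and the cancer lines below; its part in those differences was not tested. In such bulk libraries, fewer cells of a type and less RNA per cell cannot be told apart. Over named genes with at least 1 FPKM in all libraries, the median ratio of each line to the geometric mean of the 4 lines was taken. As log2, this median was higher than that of HCEC-1CT by 0.38 for HCT116, 0.41 for DLD-1 and 0.30 for SW620. Levels are given as deposited.

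The loci were short beside named long intergenic noncoding RNA genes. The span ran from 202 to 199103 bases with a median of 1199. The median was 13565 over the 1885 named genes whose symbol starts with LINC, the class of long intergenic noncoding RNA genes. Over all 58395 named genes it was 3245. Under 500 bases were 117 loci, over 5 kb were 96, and over 50 kb were 6. A single transcript was listed for 327 loci, and 18 had 2 or more, which gave 373 transcripts in all. The longest locus, XLOC_058015 at X:126261387-126460489, was listed at 0, 0, 0 and 1.59 FPKM. XLOC_016786, at 14:54011748-54147487 and 52987 bases before the start of BMP4, the nearest gene with 1 FPKM and the source of a bone morphogenetic protein ligand, was at 0, 0.0517, 1.72 and 0.286 FPKM. The shortest, XLOC_039082 at 3:124753525-124753726, lay 4252 bases after the end of UMPS, an enzyme of pyrimidine synthesis, and was at 0, 0.0565, 4.79 and 0.249 FPKM. The next shortest, XLOC_027661 at 19:246017-246220 with 204 bases, was at 0.969, 1.28, 1.54 and 1.78 FPKM, and XLOC_035391 at 22:11820956-11821160 with 205 bases was at 0, 0, 0 and 1.41 FPKM. So the longest and the shortest loci alike included some that were near or at 0 outside 1 line.

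**Figure D1:**
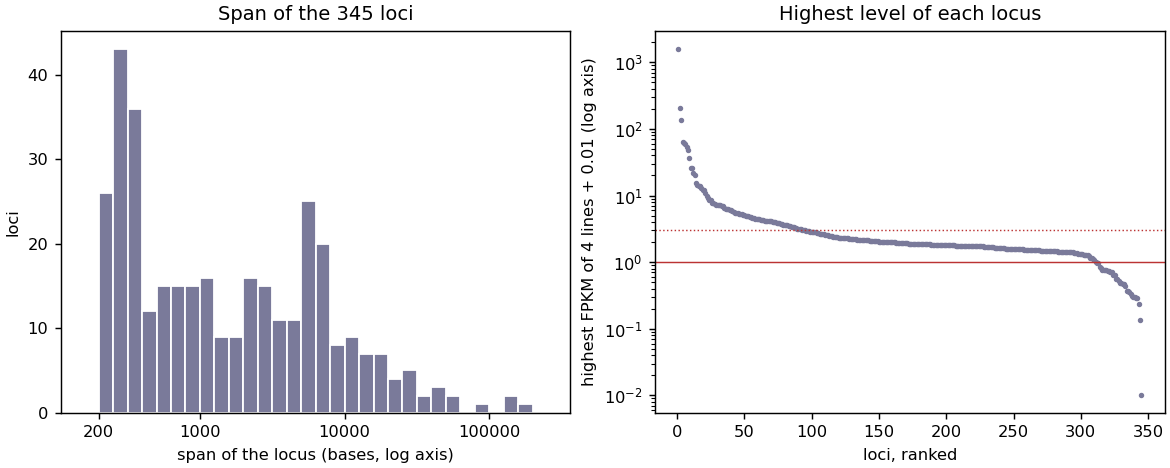
Left: number of loci by genomic span in bases on a log axis; many of the 345 loci are under 500 bases, and a further group lies above 5000. Right: highest FPKM over the 4 lines of each locus plus 0.01, on a log axis, with the loci in falling order; the solid line is 1 FPKM and the dotted line 3 FPKM, and the curve is flat between 1.25 and 3 FPKM and falls steeply at both ends.

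Most of the loci were low even in their highest line. The highest FPKM lay under 1 in 35 loci, from 1 to under 3 in 216, from 3 to under 10 in 73, from 10 to under 100 in 18, and at 100 or more in 3. Within the second range, 112 loci lay from 1.5 to under 2 FPKM and 38 from 1.25 to under 1.5, but 5 from 1 to under 1.25. The levels thus crowded between 1.25 and 2 FPKM, with few loci just above 1. Over features that reached 1 FPKM in any line, the median highest level was 2.00 FPKM for loci, 2.70 for LINC genes and 10.5 for all named genes. For the 117 loci under 500 bases, each with a single transcript, the span and the level in the highest line allow at most a median of 14.8 fragments, with quartiles of 10.4 and 26.1. A level of 1 FPKM in so short a locus rests on few fragments, and no line has a further library to show its spread.

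At least 1 FPKM was reached by 61, 123, 156 and 126 loci, which is 17.7%, 35.7%, 45.2% and 36.5% of the 345, while 22.7%, 24.5%, 24.8% and 23.9% of named genes did so. HCEC-1CT, with the deepest library, had the fewest loci at this level, and DLD-1, with the shallowest, had the most. The part of depth in these counts was not tested. At a minimum of 5 FPKM the counts were 10, 21, 19 and 22, so HCEC-1CT still had the fewest but DLD-1 no longer had the most. In any line, 310 loci, or 89.9%, reached 1 FPKM, against 31.4% of named genes. Of these 310, 14 loci, or 4.52%, reached it in all 4 lines, against 56.7% of the named genes and 13.3% of the LINC genes that reached it in any. HCEC-1CT was listed at 0 for 149 of the 310, or 48.1%, against 7.41% of named genes and 28.9% of LINC genes. The level was highest for 31 loci in HCEC-1CT, for 82 in HCT116, for 141 in DLD-1 and for 90 in SW620. In 52 loci 3 of the lines were listed at 0, and 1 locus was listed at 0 in all 4.

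The locus with the highest level lay inside the table's entry for a ribosomal RNA gene. XLOC_055791, at GL000220.1:107037-109097 on an unplaced scaffold, was at 1134, 1606, 679 and 1179 FPKM, high in all 4 lines and 2.36 times as high in HCT116 as in DLD-1. The entry is that of RNA5-8SN5, a 5.8S ribosomal RNA gene, and was at 39.4, 391, 146 and 345 FPKM. It is longer than the annotated span of that gene, which the locus does not overlap. Of its level, 39.37, 390.35, 146.41 and 345.21 FPKM came from 12 assembled transcripts, so it is not the level of the annotated 5.8S gene. The summed level of all 345 loci was 1338, 2461, 1247 and 1834 FPKM, and without XLOC_055791 it was 205, 855, 567 and 654 FPKM. The locus XLOC_055794 shares 1244 bases with it, but was at 3.73, 0, 0 and 0 FPKM, seen in HCEC-1CT alone. Near another ribosomal RNA gene, RNA5-8SN3 on chromosome 21, XLOC_034993 at 21:8453264-8459615 was at 0.0129, 0.369, 14 and 0 FPKM, high in DLD-1. Ribosomal RNA units exist in many near-identical copies, so reads of these loci can be split or shifted between copies. The sources used here do not say whether ribosomal RNA was depleted, and its part in these levels was not tested.

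Of the 345 loci, 94 had at least 3 FPKM in some line, the least that can lie 4-fold above 0 on the scale of log2(FPKM + 1). A locus was said to set a line apart when the line lay at least 4-fold above, or below, each of the other 3 lines on this scale, and 42 of the 94, or 44.7%, did so. The same held for 14.1% of 14102 named genes and 33.7% of 98 LINC genes with at least 3 FPKM. These shares are descriptions, since a locus is listed only where reads were assembled, and a named gene whatever its level. The 42 count XLOC_000989 and XLOC_003732, which overlap, as separate loci, and likewise the neighbours XLOC_050995 and XLOC_050996. The 42 loci had a median span of 5151 bases, against 784 bases for the other 52 loci at this level. Above the other lines were 6 loci for HCEC-1CT, 10 for HCT116, 14 for DLD-1 and 11 for SW620, or 6.38%, 10.6%, 14.9% and 11.7%, against 3.91%, 1.6%, 1.96% and 2% of named genes. Below the other lines was 1 locus in SW620, or 1.06% against 0.489% of named genes, and none in the other lines, where named genes gave 3.55%, 0.255% and 0.73%. In 14 of the 42 loci the other 3 lines were listed at 0. These counts depend on the pseudocount: 195 loci set a line apart at a pseudocount of 0.1 and 9 at a pseudocount of 5. The counts above the other lines were 0, 4, 2 and 3 at a pseudocount of 5, and 3, 9, 7 and 9 with at least 5 FPKM in the highest line, so DLD-1 was first in neither.

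**Figure D2:**
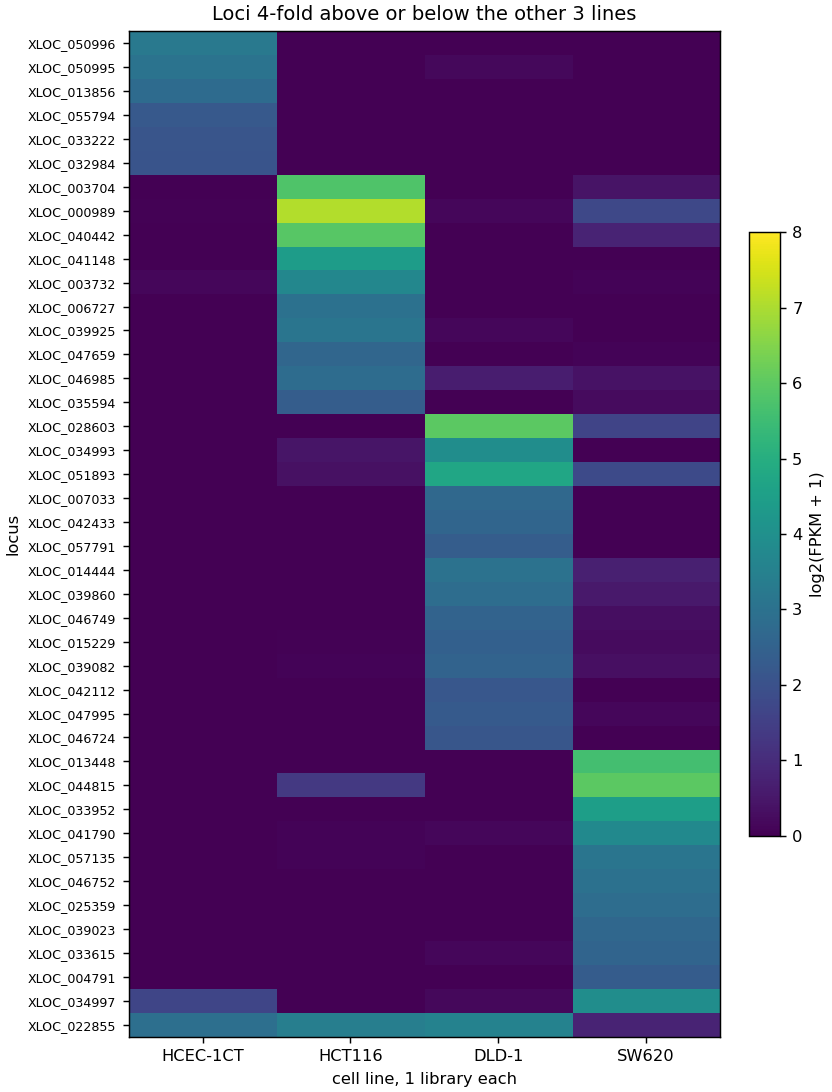
Level of the 42 loci that set a line apart, as log2(FPKM + 1) by colour, with 1 row per locus and 1 column per line (1 library each). Rows are grouped by line and ordered by the gap to the other lines; 6 loci are high for HCEC-1CT, 10 for HCT116, 14 for DLD-1 and 11 for SW620, and the last row is low in SW620.

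**Figure D3:**
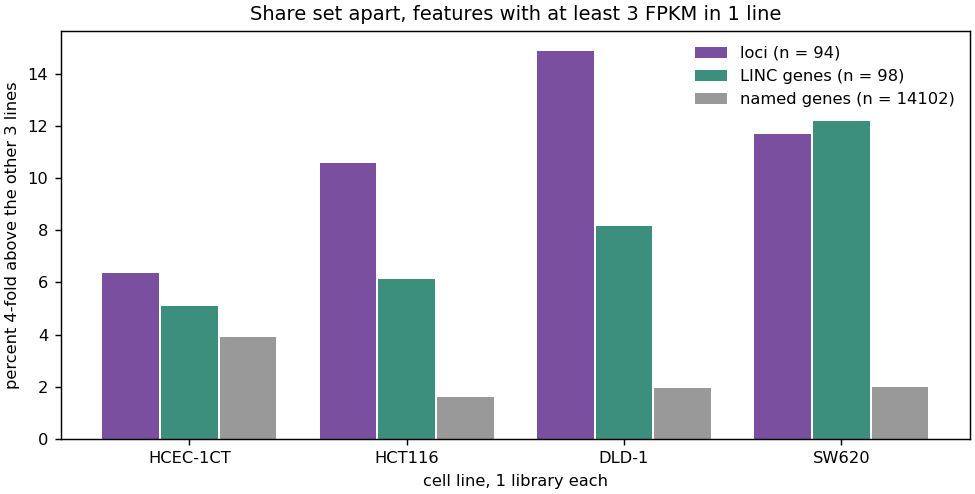
Percent of features with at least 3 FPKM in some line that lie 4-fold above the other 3 lines, for loci, LINC genes and all named genes, by line. Loci stand at 6.38% to 14.9% and named genes at 1.6% to 3.91%; LINC genes lie below the loci except in SW620.

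In HCEC-1CT the widest gaps were found on chromosomes 7 and 12. XLOC_050996, which reaches the window of LOC105375566, spans 7:150759003-150782111 and was at 8.48, 0, 0.0149 and 0 FPKM, a gap of 3.22 on the log2 scale. XLOC_050995, its neighbour at 7:150757203-150758946, was at 7.31, 0, 0.124 and 0 FPKM, a gap of 2.89. The pair thus showed the same order of lines, high in HCEC-1CT and at or near 0 in the cancer lines. The nearest named gene with 1 FPKM to XLOC_050996 was TMEM176B, which encodes a transmembrane protein, 9174 bases away. XLOC_013856, at 12:127184163-127205957, was at 6.01, 0, 0 and 0 FPKM, a gap of 2.81. Its nearest named gene, AC079949.2, a long noncoding RNA gene 34082 bases away, was at 0, 3.49, 0.160 and 3.57 FPKM, the reverse in HCT116 and SW620.

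In HCT116 the levels of the loci set apart were among the highest of all. XLOC_000989, at 1:68385481-68391954, was at 0.0341, 134, 0.10 and 2.32 FPKM, a gap of 5.35. XLOC_003704, a locus of 464 bases at 1:65644602-65645065, was at 0, 54.2, 0 and 0.332 FPKM, a gap of 5.37. Both were high in HCT116 and stood at or below 2.32 FPKM in the other lines. LEPR, the leptin receptor gene, ends 3043 bases from XLOC_003704 and was at 1.33, 2.86, 3.11 and 3.14 FPKM, without such a gap. XLOC_040442, 280 bases long at 4:87924433-87924712, was at 0, 59.9, 0 and 0.724 FPKM, a gap of 5.14, and its nearest named gene, the pseudogene HSP90AB3P, lay 30418 bases away. XLOC_041148, 209 bases long at 4:4003159-4003367 and overlapping the RefSeq long noncoding RNA gene LOC105374359, was at 0, 20.6, 0 and 0 FPKM, a gap of 4.43. Of these 4 loci with the widest gaps, 3 were thus under 500 bases.

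In DLD-1, XLOC_028603 at 19:43323553-43329050 was at 0, 0, 62.5 and 2.13 FPKM, a gap of 4.34. It begins 245 bases after the end of AC005392.2, a long noncoding RNA gene at 0, 0, 14.8 and 0.967 FPKM, with the same order of lines. XLOC_051893 on chromosome 8 was at 0, 0.273, 25.6 and 2.45 FPKM, a gap of 2.95, and XLOC_007033 at 10:53025258-53030106 was at 0, 0, 5.45 and 0 FPKM, a gap of 2.69. Between them these loci were listed at 0 in HCEC-1CT and below 2.5 FPKM in HCT116 and SW620. XLOC_007033 lies wholly inside the RefSeq long noncoding RNA gene LINC02672, whereas XLOC_028603 shares 62 of its 5498 bases with LINC03078.

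In SW620 the loci set apart included long ones. XLOC_013448, of 134659 bases at 12:91719214-91853872, was at 0, 0, 0 and 47.7 FPKM, a gap of 5.61, the widest of the 42. XLOC_044815, at 5:136540988-136570086, was at 0, 1.51, 0 and 62.0 FPKM, a gap of 4.65, and 1 of its 4 transcripts carried 55.8 of the 62.0 FPKM. XLOC_033952, at 20:12340307-12345920 with 5 transcripts, was at 0, 0, 0 and 21.5 FPKM, a gap of 4.49. Each was listed at 0 in HCEC-1CT and DLD-1. SMAD5, which encodes a transducer of bone morphogenetic protein signals, was the nearest named gene with 1 FPKM to XLOC_044815, at 352241 bases. XLOC_041790, at 4:100945152-100997165, was at 0.00469, 0.0642, 0.113 and 12.8 FPKM, a gap of 3.63. The 1 locus set apart from below, XLOC_022855 at 17:43322133-43323825, was at 6.50, 9.81, 10.8 and 0.738 FPKM, a gap of 2.11 under the lowest of the other lines. The nearest named gene, LINC00854, starts 16736 bases from it and was at 18.1, 15.0, 31.5 and 3.70 FPKM, also lowest in SW620.

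No locus lay 4-fold higher in all 3 cancer lines than in HCEC-1CT, against 3.55% of named genes, and 6 lay lower in all 3, which is 6.38% of the 94 against 3.91% of named genes. The 6 are the loci that set HCEC-1CT apart, and the 3 ratios share the HCEC-1CT library. They are not all separate in place, since XLOC_050995 and XLOC_050996 are neighbours. XLOC_055794, another of them, shares 1244 bases with XLOC_055791 in the entry of RNA5-8SN5. With at least 5 FPKM in the highest line, 3 lower loci were left, which were XLOC_050996, XLOC_050995 and XLOC_013856. The direction depends on the pseudocount, since at 0.1 there were 25 higher loci and 13 lower. Nearest to being higher in all 3 came XLOC_046539, at 6:144922332-144929952, with 0, 207, 2.90 and 88.8 FPKM. It was listed at 0 in HCEC-1CT and was high in HCT116 and SW620. XLOC_054141, at 9:94543467-94543698, followed with 0, 1.62, 5.44 and 8.63 FPKM, and XLOC_005920, at 10:67765103-67765423, with 0, 1.18, 1.53 and 1.40 FPKM. Single comparisons gave 18, 22 and 26 loci higher in HCT116, DLD-1 and SW620 than in HCEC-1CT, or 19.1%, 23.4% and 27.7%, against 11.8%, 12.1% and 11.6% of named genes. Lower were 7, 7 and 8 loci, or 7.45%, 7.45% and 8.51%, against 6.57%, 7.32% and 7.2%.

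The 14 loci at 1 FPKM or more in all 4 lines included XLOC_055791 and a locus with a tRNA gene. XLOC_011628, at 12:55409889-55410808 wholly inside the RefSeq span of the pseudogene PHC1P1 but 919 bases from the table's entry for it, was the steadiest of them, at 14.6, 13.9, 10.9 and 11.7 FPKM, 1.35 times between highest and lowest. XLOC_053236, 316 bases long on chromosome 8 and 78556 bases from the nearest named gene, was at 8.03, 25.6, 15.8 and 17.9 FPKM. XLOC_002296, of 436 bases at 1:205957923-205958358 overlapping the RefSeq genes SLC26A9-AS1 and LOC103021295, was at 4.38, 7.30, 6.15 and 6.93 FPKM. XLOC_013282, at 12:66003377-66003740, was at 7.57, 3.47, 3.49 and 5.20 FPKM. In these 4 loci the lowest listed level was in DLD-1 for the first, HCEC-1CT for the next pair and HCT116 for the last. In the last, DLD-1 was nearly equal to HCT116. With 1 library per line, such small differences cannot be set against a spread.

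In position, 13 of the 345 loci, or 3.77%, shared at least 1 base with a named gene of the table on either strand. Of the 1885 LINC genes, 756 did so with another named gene. Transcripts that match an annotated gene are not gathered into such loci. The low share of loci is therefore partly set by how the table was made. Of the loci other than these 13, 49 lay within 1 kb of the nearest named gene and 79 at over 1 to 5 kb. A further 168 lay at over 5 to 50 kb and 30 further away. A further 6 were on scaffolds with no named gene. The median distance was 8737 bases over 326 loci, and 12380 over the 1129 LINC genes that overlapped none.

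None of the 13 overlaps involved the annotated span of the gene. In each, the gene's entry in the table was longer than its GENCODE 29 span, and at least 1 assembled transcript of the gene reached the locus. For RPE65, the retinoid isomerase of the visual cycle, the entry was at 0, 17.6, 0 and 0 FPKM, and 17.5 of the 17.6 FPKM in HCT116 came from an assembled transcript that reaches into XLOC_000989. That locus was high in HCT116 too. For PPP3CA, the catalytic subunit of calcineurin, the entry was at 19.9, 39.0, 38.0 and 42.4 FPKM, and the 6 assembled transcripts that reach XLOC_041790 were at 0.0224, 0.159, 0.531 and 32.4 FPKM together. In SW620, where XLOC_041790 was set apart, they thus made up most of the gene's level, and in the other lines a small part. XLOC_015229, within the entries of MYO16, an unconventional myosin, and MYO16-AS1, was 1 of the 14 loci set apart in DLD-1. Both entries were also highest there, at 1.86 and 2.04 FPKM, but 1.83 and 1.85 FPKM of this came from assembled transcripts that reach the locus. In HCEC-1CT the MYO16 entry was at 0.788 FPKM, of which 0.00241 FPKM came from its assembled transcript.

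At up to 1 kb from a named gene, the loci lay more often before its start than after its end, as LINC genes also did. Within 1 kb, 37 lay before the start of the nearest named gene and 12 after its end; for LINC genes the counts were 108 and 31. Within 5 kb the counts were even, at 64 and 64. Of the 37, 24 lay before a protein-coding gene, at a median of 184.5 bases from it and a range of 32 to 595, and 16 of the 24 lay within 300 bases. Their highest level had a median of 1.69 FPKM, against 21.3 FPKM for the genes. In 20 of the 24 pairs both reached 1 FPKM in some line, and in 18 of the 20 the locus was below the gene in all 4 lines. The exceptions were SLC22A31 and DRD4, where both locus and gene were near or under 1 FPKM in the line concerned.

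The 4 loci printed first show this. XLOC_020842 was at 1.16, 0.795, 1.90 and 1.45 FPKM, against 5.38, 11.3, 18.1 and 5.28 for RAB40C, both highest in DLD-1. XLOC_010589 was at 0.637, 1.29, 0.389 and 1.24 FPKM, against 25, 29.3, 23.9 and 12.7 for BIRC2, both highest in HCT116. XLOC_000028 was at 0.650, 4.36, 0.0514 and 0.184 FPKM, against 22.2, 60.4, 21.6 and 21.9 for NOC2L, again both highest in HCT116. For XLOC_002449 the highest lines differed, with 0.669, 1.49, 0.519 and 1.51 FPKM against 21.7, 13.0, 8.93 and 9.03 for TP53BP2. Other such genes were BIRC6, a giant inhibitor of apoptosis, FDPS, an enzyme of isoprenoid synthesis, CKS2, a subunit of cyclin-dependent kinases, and KLF6, a zinc finger transcription factor. The wide case was SLC22A31, a member of the SLC22 transporter family, at 0.0178, 24.9, 0.0224 and 0.348 FPKM, with XLOC_020794 at 0.0403, 2.82, 0.0218 and 0.0482 FPKM, both high in HCT116 alone.

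**Figure D4:**
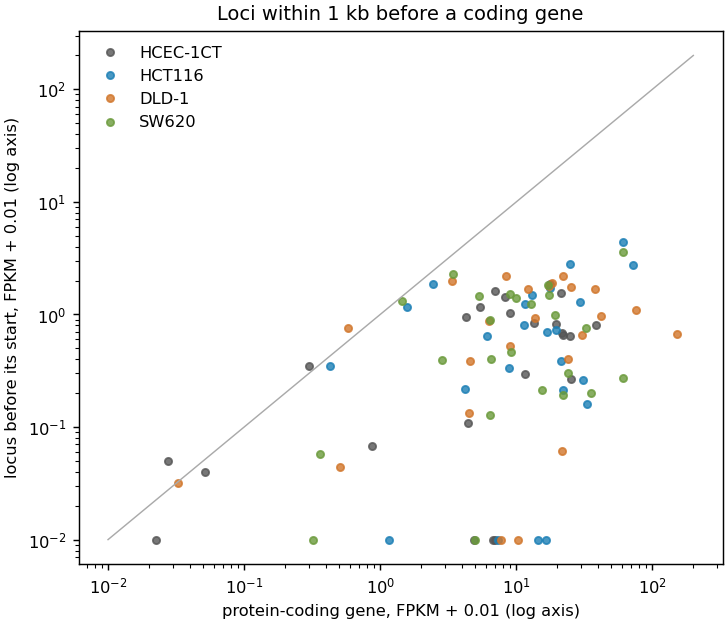
FPKM + 0.01 of 24 loci that lie within 1 kb before the start of a protein-coding gene (vertical) against the gene (horizontal), both on log axes, with 1 point per locus and line coloured by line. The grey line marks equal levels, and nearly all points lie below it.

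The highest line was the same in locus and gene in 14 of the 20 pairs. Over all loci with 1 FPKM, it was the same as in the nearest named gene with 1 FPKM in 150 of 300, or 50%, against 42% of named genes with their nearest other named gene and 45.9% of LINC genes. By distance to that gene, the count was 7 of 12 for loci that overlap it, 16 of 24 within 1 kb before its start, 4 of 7 within 1 kb after its end, 9 of 17 and 18 of 33 at over 1 to 5 kb before and after it, 53 of 123 at over 5 to 50 kb and 43 of 84 further away. Where a locus overlaps the gene, the level of the gene includes assembled transcripts that reach the locus, so locus and gene were not measured apart. The share showed no steady fall with distance, and without the overlapping loci it was 49.7%, in 143 of 288. With at least 5 FPKM in locus and gene it was 33.3%, in 16 of 48. These shares are descriptions, since loci highest in the same line share 1 library.

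A set of 16 loci each overlapped a nuclear tRNA gene of RefSeq, out of 443 such genes. tRNA genes are short, and RNA polymerase III transcribes them from promoter elements inside the gene and stops at a run of T. In 16 of the 16 loci the tRNA gene lay within 25 bases of one end of the locus, and the rest of the locus ran 151 to 536 bases beyond the other side of it, with a median of 236.5. The tRNA gene lay at the end with the lower coordinate in 10 loci and at the other end in 6. The strand of these tRNA genes is not in the tables used, so the side is given by coordinate alone. The loci had a median span of 312.5 bases, against 1330 for the others, and 6 were on chromosome 6, which holds 155 of the 443 tRNA genes, and 4 on chromosome 14.

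**Figure D5:**
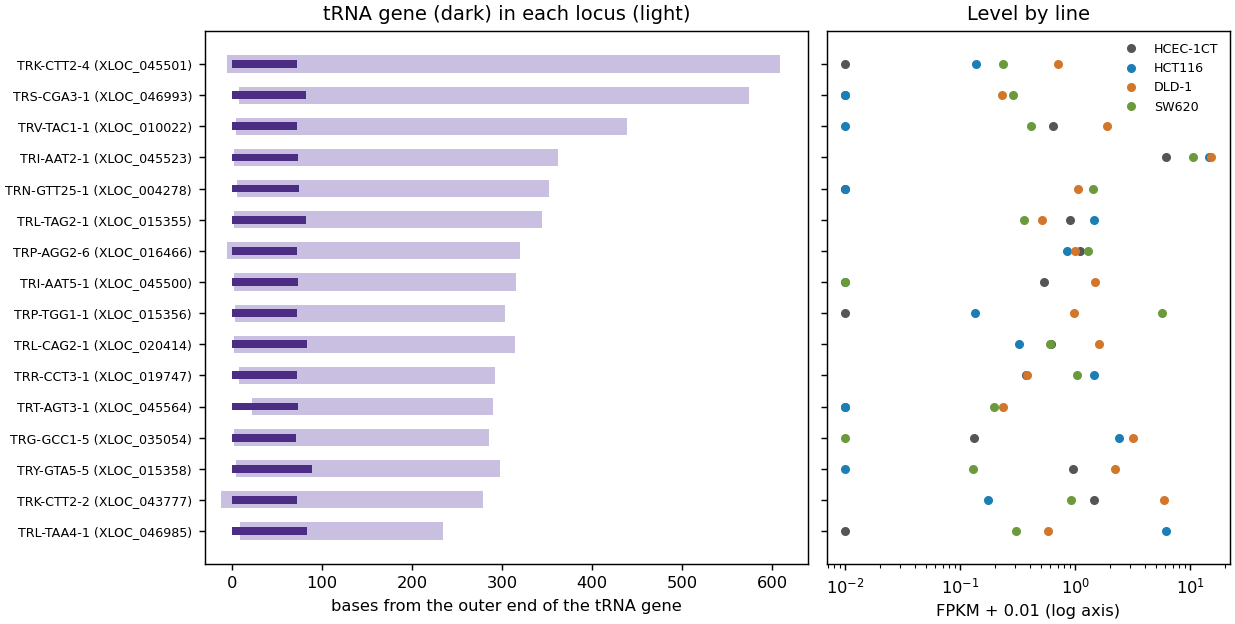
Left: the 16 loci that overlap a tRNA gene, drawn in bases from the outer end of the tRNA gene and turned so that the tRNA gene (dark) lies at the left; the locus (light) runs 151 to 536 bases past it. Right: FPKM + 0.01 of each locus in the 4 lines on a log axis, where equal values cover each other; XLOC_045523 lies above the others in each of the 4 lines.

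Of the 16, 13 reached 1 FPKM in some line, with 3, 5, 8 and 5 doing so by line, and 0, 3, 9 and 4 had their highest level there. XLOC_045523, with the isoleucine tRNA gene TRI-AAT2-1 at 6:27688190-27688549, was at 6.11, 14.6, 15.2 and 10.5 FPKM, high in all 4 lines. XLOC_046985, with the leucine tRNA gene TRL-TAA4-1 at 6:27230404-27230628, was at 0, 6.09, 0.571 and 0.297 FPKM, and it was 1 of the loci that set HCT116 apart. XLOC_043777, with the lysine tRNA gene TRK-CTT2-2 at 5:181207743-181208033, was at 1.44, 0.165, 5.92 and 0.898 FPKM, and XLOC_015356, with the proline tRNA gene TRP-TGG1-1 at 14:20633010-20633308, was at 0, 0.125, 0.970 and 5.63 FPKM. So these 4 tRNA loci had their highest level in 3 different lines. Over the 16, the median level was 0.441, 0.146, 1.02 and 0.375 FPKM, and over the 120 other loci of at most 700 bases it was 0, 0.405, 0.660 and 0.366. tRNA genes exist in near-identical copies, so their reads may be shared with other copies.

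Another set of loci occupied the same place as a second locus. There were 6 such pairs, and in 5 of them both had the same highest line. XLOC_000989 shared 6467 bases with XLOC_003732, which was at 0.110, 12.1, 0.0172 and 0.0643 FPKM, so the first was 11.1 times as high in HCT116. XLOC_046539 shared 5527 bases with XLOC_047986, at 0, 9.96, 0.0370 and 3.77 FPKM, and was 20.7 times as high in HCT116. XLOC_044815 shared 28614 bases with XLOC_043303, at 0, 0.0546, 0 and 1.76 FPKM, and was 35.2 times as high in SW620. In these 3 pairs a high locus thus covered all or nearly all of a low one, and both had the same highest line. XLOC_053909, at 9:66269984-66285315 with 1.91, 9.38, 0.642 and 36.1 FPKM, was 10.3 times as high as XLOC_055088 in SW620, whereas XLOC_056346 and XLOC_056347 on chromosome X were at 2.16 and 1.91 FPKM in DLD-1 and at or near 0 elsewhere. The files used here do not give the strand of either locus of a pair, so whether they lie on opposite strands was not tested.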

How the data were processed

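The values are FPKM as the authors deposited them, per gene and per transcript; 1 library was made per line, and 1 column per table matches no sample and was not used. Per the submitters' processing notes, FastQC, HISAT2 and hg38 were used, without versions. The assembler, the program that made the FPKM values, the annotation release, the library selection and the strand were not given in the sources used here.

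Of 58395 named genes, 58275 were matched to GENCODE 29 by ID, and 96.7% of these had the same coordinates there. Gene types and strands came from GENCODE 29, and promoter sequences and further gene names from RefSeq GRCh38.p14. The first 20 transcribed bases of 99.8% of 8815 RefSeq promoters equalled those of a GENCODE transcript with the same start. Overlap means 1 shared base on either strand. Depth was read from the steps of FPKM times length in genes with a single transcript.

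With 1 library per line no test was made. Log2 ratios used FPKM plus a pseudocount of 1, which understates changes of low loci. Overlap, distance and call steps were checked on simulated data. Python 3.11.15, pandas 2.3.3, numpy 2.4.6 and matplotlib 3.10.9 were used.

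The loci, lists and comparisons were chosen with earlier results of these data known. Loci were named by rule: the 10 with the highest maximum, for each line the 4 with the widest gap above and the 2 below, in each direction the 3 whose weakest ratio to HCEC-1CT was largest, the 3 longest, the 3 shortest, and the 3 highest over 50 kb from a named gene. Loci singled out because they overlap a tRNA gene, precede a gene, overlap another locus or are seen in all lines, and their neighbours, were chosen after their values were seen.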

Additional observations from a re-analysis of the deposited data

How the results depend on the processing

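No paired analysis was possible because each line has 1 library, and leaving out a library would leave a line without values. With a minimum of 5 FPKM, 50 loci were detected, and 141 loci overlapped a named gene or lay at most 5 kb from it. Loci setting a line apart numbered 195 at a pseudocount of 0.1, 9 at a pseudocount of 5 and 181 at 2-fold. Loci changed in all 3 cancer lines numbered 38, 0 and 21 under these settings and 3 with at least 5 FPKM in the highest line. Of them, 25 were higher at a pseudocount of 0.1 and 8 at 2-fold, and 13, 0, 13 and 3 were lower at 0.1, at 5, at 2-fold and with at least 5 FPKM. The share highest in the same line as the nearest gene was 33.3% at 5 FPKM or more. Scaling by the median ratio over named genes gave 309 loci detected, 43 set apart, 0 higher, 7 lower and a share of 48.3%. Of the 17 named loci that set a line apart, 9 still did so at a pseudocount of 5, 16 with at least 5 FPKM in the highest line and 17 under the other 3 alternatives, and 0 changed sign. Precision at low levels is limited by depth, since short loci rest on few fragments, and a single library per line leaves spread between cultures unmeasured.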

Other observations

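Over chromosomes, the loci did not follow the named genes closely in each case. Chromosome 19 held 3 loci, or 0.870%, and 5.06% of named genes, while chromosome 6 held 26 loci, or 7.54%, against 4.91%, and chromosome 10 held 20, or 5.80%, against 3.78%. Unplaced scaffolds held 14 loci, on 10 of them, or 4.06% of the 345, while all unplaced scaffolds of the table together held 59 named genes, or 0.101%. XLOC_055843 on KI270745.1, a scaffold with no named gene in the table, was at 2.26, 1.79, 1.78 and 1.16 FPKM and was 1 of the 14 loci seen in all 4 lines. XLOC_055798 and XLOC_055799, neighbours on KI270438.1, were at 2.28 and 1.84 FPKM in DLD-1 and listed at 0 in the other lines.

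The transcript table names 243 of the 373 transcripts of the loci as LINC with a running number, which is not a gene symbol. In 218 loci every transcript had such a name, with a median span of 442.5 bases and a median highest level of 1.81 FPKM. In 118 loci none had, with a median span of 4718 bases and a median of 1.96 FPKM. Transcripts of 1 locus could differ between lines. XLOC_022855 had 3 transcripts: the longest was at 6.50, 0.870, 10.8 and 0.738 FPKM, and the others were listed at 0 outside HCT116, where they were at 5.96 and 2.98 FPKM. In XLOC_001538 at 1:149357826-149358458, 1 transcript was at 0.0507, 5.72, 0.310 and 0.587 FPKM and another at 4.56, 0, 8.26 and 0 FPKM.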
